A study of Homo sapiens and Mus musculus with 12 samples.

Results

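The clustered histone genes are the genes, mostly without introns, that encode the core histones H2A, H2B, H3 and H4 and the linker histone H1, and that lie next to each other in the HIST1, HIST2 and HIST3 groups and at the single HIST4 gene. Human members were the genes whose symbol begins with HIST1H, HIST2H, HIST3H or HIST4H in the authors' deposited table, without 13 symbols that end in PS and a digit, and mouse members were the genes whose deposited description begins with the words histone cluster. There were 76 human members among 60675 gene identifiers and 63 mouse members among 47729, which made 139 of 108404 in all. The rule used names and descriptions and no measured value.

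RNA was sequenced from cortical organoids, which are balls of stem cells grown so that they form early forebrain tissue. The human organoids came from the established H9 stem cell line and were NOTCH2NL knockout (KO) or WT; they were harvested at week 4, on day 28. The mouse organoids were grown from 46C embryonic stem cells, stably expressing the human NOTCH2NL-Sh_T197I cDNA (N2NL) or an empty vector (EV), and were harvested at day 6. Each of the 4 groups had 3 libraries, each from a pool of 5 to 10 human or 16 mouse organoids. All KO libraries carry 1 line code and all WT libraries another, and likewise N2NL and EV. The genotype or vector and the cell line that carries it therefore cannot be told apart. Both human codes, that of WT included, hold the letters del, so WT is not taken here to mean unedited H9 cells. Nothing in the labels ties the pools of a group to separate cultures, and the p-values therefore reflect the variation among pools, some of which may be technical. NOTCH2NL is a human-specific relative of the Notch receptor gene NOTCH2, and the comparisons ask how organoid gene expression changes when it is removed from human cells or added to mouse cells.

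Most histone protein is made while DNA is being copied. The messages of the replication-dependent histone genes are unusual: their 3′ end is a short stem-loop that is bound by the protein SLBP, and most of them carry no poly(A) tail. Some members can instead end at a downstream poly(A) signal, which gives a longer, polyadenylated message that is also known from cells that have stopped dividing. RNA here was selected by its poly(A) tail, per the labels' protocols, so the values below describe the polyadenylated part of the histone messages and not their whole amount.

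The stem-loop stood in the annotated transcripts of 34 human members in GENCODE release 29, which matched 75 of the 76. Of the 70 protein-coding members, 32 (45.7%) held it, against 49 of all 19922 protein-coding genes (0.246%); the 17 others included H2AFX, whose message is known to carry both kinds of end. The members used 6 different stem-loops, and the most common was shared by 18 members, of which 6 encode H2A, 9 encode H2B and 3 encode H3. In 33 of the 38 coding members without it, every annotated transcript stops at the stop codon, so the place of the stem-loop lies outside the model and could not be searched. The stem-loops of 10 members are printed: those of the 6 tested members with the largest log2 fold changes in either direction, and of the 4 members with a stem-loop that had the highest levels. The 16 bases of the stem-loop are in capitals, with 5 flanking bases on each side, read 5′ to 3′ from the GENCODE transcripts and placed on GRCh38.
HIST1H2AC, chr6:26124664-26124689, plus strand: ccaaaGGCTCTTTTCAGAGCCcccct
HIST1H3E, chr6:26225591-26225616, plus strand: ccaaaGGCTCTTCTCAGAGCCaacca
HIST1H2AG, chr6:27133510-27133535, plus strand: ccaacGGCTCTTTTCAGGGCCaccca
HIST1H2BE, chr6:26184205-26184230, plus strand: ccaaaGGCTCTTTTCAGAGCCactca
HIST2H2BE, chr1:149886183-149886208, minus strand: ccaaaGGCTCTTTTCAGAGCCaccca
HIST3H2A, chr1:228457364-228457389, minus strand: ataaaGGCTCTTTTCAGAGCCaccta
HIST1H2BH, chr6:26252050-26252075, plus strand: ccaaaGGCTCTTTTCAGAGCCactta
HIST1H2BD, chr6:26158582-26158607, plus strand: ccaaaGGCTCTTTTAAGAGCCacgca
HIST1H2BN, chr6:27839085-27839110, plus strand: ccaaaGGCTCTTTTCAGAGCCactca
HIST1H4E, chr6:26204996-26205021, plus strand: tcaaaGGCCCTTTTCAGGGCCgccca
The stem-loop of HIST1H3E was found in no other member. That of HIST1H2AG was shared by 2 members, and that of HIST1H4E by 5 members, all of them H4 genes.

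Promoters are printed for the genes that were higher in KO organoids and for the member with the most counts. Whether promoter sequence goes with level was not tested. Of the 76 members, 61 were matched by gene identifier to a RefSeq promoter on GRCh38.p14, and the 250 bases before the start were searched on both strands for the TATA box, spelled TATAAA, for the CCAAT box, and for the octamer read by OCT1, spelled ATTTGCAT; the motifs were counted independently of overlap. Matches are in capitals below, and a match written as its reverse complement lies on the other strand.
HIST1H2AC, chr6:26123922-26124171, plus strand: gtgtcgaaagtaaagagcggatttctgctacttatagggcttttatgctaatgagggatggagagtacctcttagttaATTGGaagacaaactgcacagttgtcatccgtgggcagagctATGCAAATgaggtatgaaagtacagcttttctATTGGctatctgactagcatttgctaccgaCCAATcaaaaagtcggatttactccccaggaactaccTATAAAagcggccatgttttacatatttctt
HIST1H3E, chr6:26223928-26224177, plus strand: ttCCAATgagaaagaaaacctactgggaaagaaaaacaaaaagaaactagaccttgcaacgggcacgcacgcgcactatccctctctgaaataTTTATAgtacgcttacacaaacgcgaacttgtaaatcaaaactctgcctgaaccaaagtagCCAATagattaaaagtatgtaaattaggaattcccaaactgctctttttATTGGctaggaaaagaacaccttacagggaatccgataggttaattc
HIST2H2BE, chr1:149886683-149886932, minus strand: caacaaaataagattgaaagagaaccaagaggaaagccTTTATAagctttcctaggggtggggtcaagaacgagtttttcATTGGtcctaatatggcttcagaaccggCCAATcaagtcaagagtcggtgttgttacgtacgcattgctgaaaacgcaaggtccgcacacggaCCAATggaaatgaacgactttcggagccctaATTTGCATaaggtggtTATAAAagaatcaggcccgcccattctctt
TATAAA stood in 65.6% of member promoters and in 11.1% of all 27305 promoters searched. The share was 83.6% against 33.0% for CCAAT and 42.6% against 1.66% for ATTTGCAT. The octamer matched in 11 of 14 H2A promoters and 14 of 18 H2B promoters, in 1 of 10 H3 promoters, and in none of the 13 H4 or 6 H1 promoters. The H3 match is that of HIST1H3D. Its RefSeq window is the same as that of the H2A gene HIST1H2AD and lies upstream of HIST1H2AD. The 61 promoters are thus 60 different windows, and these are not all separate stretches. Some windows of neighbouring H2A and H2B genes cover nearly the same bases on opposite strands, such as those of HIST2H2BE and HIST2H2AC (chr1:149886668-149886917). A match in such a stretch was counted for both genes. CCAAT matched in all H1, H2A, H2B and H3 promoters searched and in 3 of 13 H4 promoters. The promoter of HIST1H2AC shares 245 of its bases with that of HIST1H2BC, which is read from the other strand of the same stretch.

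Human libraries held 15381409 to 16382938 counts and mouse libraries 16781742 to 20960391. Levels are in CPM, counts scaled by library size and TMM factors, and a count of 0 allows up to 0.199 CPM in a human library and 0.178 CPM in a mouse library (a floor of 3 counts, counting error only). The targeted gene matched the labels: NOTCH2NL had 0, 0 and 0 counts in KO libraries and 4, 5 and 3 in WT libraries. This human check rests on few counts, and the WT values are near the floor. In mouse, NOTCH2NL had normalized values of 801, 709 and 740 in N2NL libraries and 0 in every EV library, in the authors' deposited table. Organoid markers were present, with 12 of 12 forebrain radial glia genes and 12 of 12 neuron genes passing the filter in both species. In human organoids TDGF1, T and SOX17 were at 0 in all libraries. POU5F1, NANOG and ZFP42 were at 0 in all KO libraries and under 0.1 CPM on average in WT libraries. Other genes of these lists were present. Of 7 pluripotent cell genes 2 passed the filter, and of 13 mesoderm, endoderm, neural crest and mesenchyme genes 5 did.

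Few members were well represented in either species. Of the 76 human members, 15 were at 0 in all 6 libraries, 19 had 1 to 10 counts over the 6 libraries, and 21 passed the filter on low counts and were tested. The members at 0 included HIST2H2AA3, HIST2H3A, HIST2H3C and HIST2H3D of the HIST2 group and the HIST1 genes HIST1H2AA, HIST1H2BA and HIST1H1A. HIST2H2BE, an H2B gene, alone held 33.4% of the summed CPM of all members, and with HIST3H2A, an H2A gene, the share was 53.3%. By class, H2B genes held 57.5% of the summed CPM, H2A genes 27.6%, H4 genes 7.90%, H1 genes 4.65% and H3 genes 2.31%.

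The annotated transcript end went with the level. The 22 members with a transcript that runs more than 300 bases past the stem-loop held 81.6% of the summed CPM, and 14 of them were among the 21 tested. At more than 500 bases the share was 58.9%, with 19 members, since HIST3H2A, whose model ends 390 bases past its stem-loop, then falls outside. Members with no AATAAA poly(A) signal in the last 50 bases of any annotated transcript, HIST3H2A among them, held 38.5%. The median level of the 22 members whose transcript runs more than 300 bases past the stem-loop was 1.12 CPM. It was 0.272 CPM for the 12 members with a stem-loop and a shorter end and 0.0843 CPM for the 41 with no annotated stem-loop. Per kilobase of exon the medians were closer, at 0.560, 0.297 and 0.221 CPM per kilobase. A longer model can collect more counts, and the part of length in these levels was not tested beyond the values per kilobase. The 14 members that share more than 75% of their 50-base stretches with another transcript had a median of 0.00507 CPM and reached at most 0.811 CPM; reads from such copies can be lost or assigned to the wrong copy in counting, and their levels are uncertain.

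**Figure D1:**
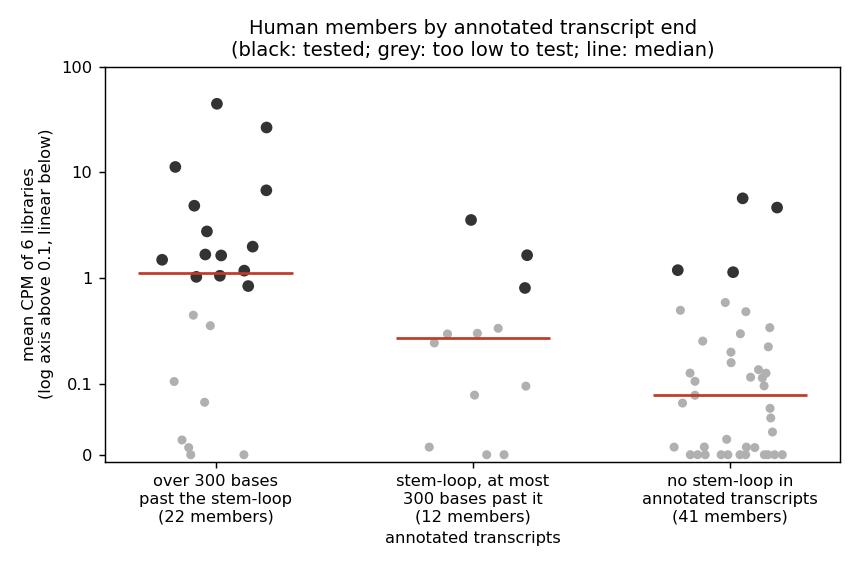
Mean CPM over the 6 human libraries (log axis above 0.1, linear below) of the 75 members found in GENCODE, grouped by how the annotated transcripts end; each point is a member, black points were tested, and the red line is the median. The medians lie at 1.12, 0.272 and 0.0843 CPM, and the members with the highest levels stand in the first group.

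Knocking out NOTCH2NL was accompanied by higher counts of a pair of members, HIST1H2AC and HIST1H3E, and by no called change in the rest. Among the 21 tested members, 2 were higher in KO organoids and 0 were lower at an adjusted p under 0.05 (edgeR quasi-likelihood test, Benjamini-Hochberg over all genes), while over all 16956 genes tested 5.5% were called, 2.31% as higher and 3.19% as lower. At an unadjusted p under 0.05 there were 7 members, of 21, beside 22.8% of all genes. The log2 fold change was above 0 for 15 members and below 0 for 6, where 49.3% of all genes were above 0, and the members' median was 0.18 against -0.0047 for all genes. With 1 library left out the members' median was 0.33 (without WT 2), 0.33 (WT 3), 0.27 (KO 1), 0.44 (KO 2) or 0.28 (KO 3), and 0.16 without WT 1. The members were measured in organoids of mixed cells, and a larger share of cells that make a message cannot be told apart from more message per cell.

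HIST1H2AC encodes an H2A protein and lies at chr6:26124145-26139116 on the plus strand (GRCh38). It had 5.19, 6.79 and 10.0 CPM in KO libraries, against 1.75, 2.31 and 3.05 CPM in WT libraries. The lowest KO library stood above the highest WT library. The log2 fold change was 1.63 ± 0.30 (SE), with an edgeR adjusted p of 0.0154, and the mean levels were 7.33 CPM in KO and 2.37 CPM in WT. The adjusted p stayed under 0.05 when any KO library or WT 1 was left out, and was 0.0502 without WT 2 and 0.055 without WT 3, with log2 fold changes of 1.34 to 1.85 over the 6 fits. In the authors' deposited table its log2 fold change is 1.12, with an adjusted p of 7.85e-05.

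HIST1H3E encodes an H3 protein and lies at chr6:26224199-26227473 on the plus strand. Its level was low: 2.401, 1.59 and 1.40 CPM in KO libraries, from 37, 25 and 23 counts, against 0.0647, 0.486 and 0.397 CPM in WT libraries, from 1, 8 and 6 counts. All KO libraries were above all WT libraries, and WT 1 was the lowest. The log2 fold change was 2.47 ± 0.53 (SE), the largest of the tested members, with an edgeR adjusted p of 0.0268. It was not called without WT 3 (adjusted p = 0.109), KO 1 (0.115) or KO 2 (0.0633), and the log2 fold changes over the 6 fits ran between 2.0 and 2.93. The authors' deposited table gives a log2 fold change of 0.9 and an adjusted p of 0.00618, and past 0.05 it holds these 2 among 25 members with an adjusted p. Its log2 fold changes were also smaller in size than edgeR's for other members, such as HIST1H2AG (0.58 against 1.13) and HIST1H2BN (-0.43 against -0.77).

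Both genes are H2A or H3 members of the HIST1 group on chromosome 6. Each has a transcript that runs far past its stem-loop, by 1128 bases in HIST1H2AC and 1862 bases in HIST1H3E. Neither trait is particular to them. Of the 21 tested members, 17 are in the HIST1 group, and 11 have a transcript over 500 bases past the stem-loop. HIST1H2BC, which is read away from HIST1H2AC from the shared promoter with 219 bases between the annotated starts, was too low to test: it had 2, 5 and 12 counts in KO libraries, against 4, 4 and 2 counts in WT libraries. Its groups overlapped. Mean levels of 0.302 CPM for HIST1H2BC and 4.85 CPM for HIST1H2AC differ in models of unlike length, and the deposited counts are per gene.

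**Figure D2:**
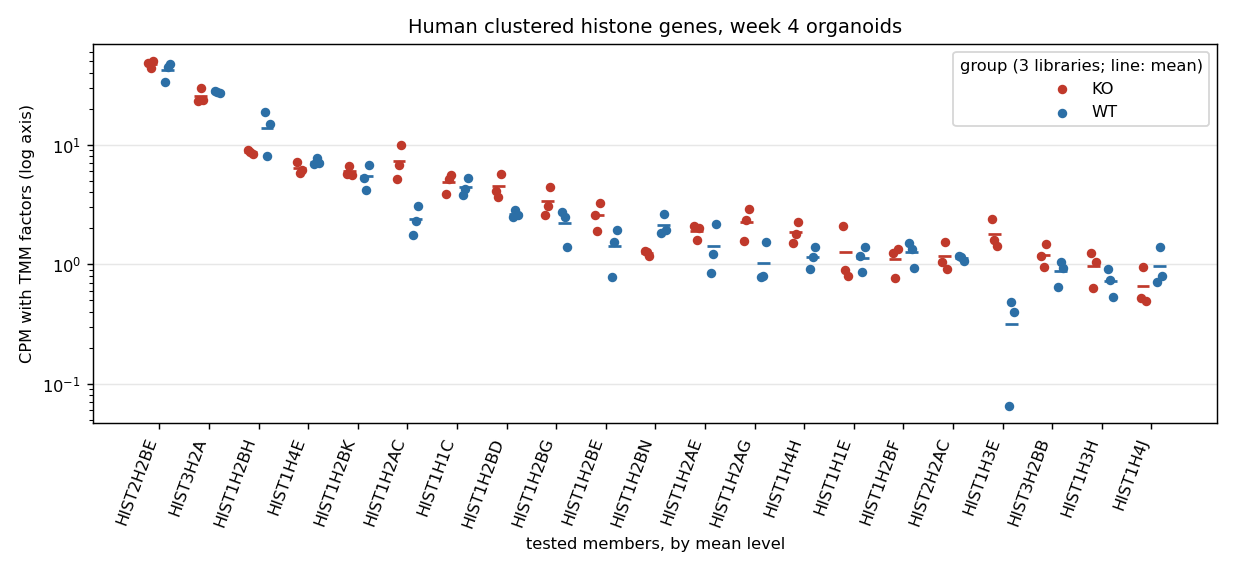
CPM with TMM factors (log axis) of the 21 tested human members in each library, KO in red and WT in blue, in order of mean level, with a line at each group's mean. KO and WT points are apart for HIST1H2AC (5.19 to 10.0 against 1.75 to 3.05 CPM) and HIST1H3E (1.40 to 2.401 against 0.0647 to 0.486 CPM) and overlap for most of the others.

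The H2A genes that were not called included HIST3H2A, the second member by level. HIST3H2A had 23.2, 29.5 and 23.8 CPM in KO libraries, against 28.1, 27.7 and 27.2 CPM in WT libraries. Its KO libraries lay on both sides of the WT libraries, and the log2 fold change was -0.12 ± 0.12 (adjusted p = 0.617). HIST1H2AG had 1.56, 2.35 and 2.87 CPM in KO libraries, against 0.776, 0.791 and 1.52 CPM in WT libraries. These groups were apart by a narrow gap, and the log2 fold change of 1.13 ± 0.39 had an adjusted p of 0.116. HIST1H2AE and HIST2H2AC had log2 fold changes of 0.42 and 0.04 and overlapping groups.

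The H2B genes held the most counts and none was called. HIST2H2BE, at chr1:149884459-149886652 on the minus strand, had 48.1, 43.8 and 49.8 CPM in KO libraries, against 33.6, 44.2 and 47.7 CPM in WT libraries. The groups overlapped, with WT 1 the lowest library, and the log2 fold change was 0.18 ± 0.13 (adjusted p = 0.465). HIST1H2BH had 9.02, 8.63 and 8.37 CPM in KO libraries, against 18.8, 8.03 and 14.8 CPM in WT libraries. The KO libraries were close to each other and the WT libraries were spread, so that WT 2 lay below all KO libraries. The log2 fold change was -0.68 ± 0.27 (adjusted p = 0.185); without WT 2 it was -0.95 and passed the threshold (adjusted p = 0.0237), and without WT 1 it was -0.40 (adjusted p = 0.339).

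HIST1H2BD had 4.09, 3.68 and 5.68 CPM in KO libraries, against 2.46, 2.86 and 2.58 CPM in WT libraries. Every KO library was above every WT library, and the adjusted p was 0.106 with a log2 fold change of 0.77 ± 0.25. HIST1H2BN had 1.30, 1.27 and 1.16 CPM in KO libraries, against 1.81, 2.61 and 1.92 CPM in WT libraries. It was the only tested member with all KO libraries below all WT libraries, with a log2 fold change of -0.77 ± 0.31 (adjusted p = 0.170). The HIST1H2BN model overlaps HIST1H2AK and HIST1H2AL, with HIST1H2AL on the same strand. That of HIST1H2BD overlaps LARP1P1 on the same strand, and those of HIST1H2BD and HIST1H2BE overlap AL353759.1 on the other strand. How such reads were assigned is not known, so these counts are uncertain. HIST1H2BE, HIST1H2BG and HIST1H2BK had log2 fold changes of 0.87, 0.60 and 0.14, with adjusted p of 0.193, 0.303 and 0.752.

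Among the 21 tested members, 5 had all KO libraries above all WT libraries (HIST1H2AC, HIST1H3E, HIST1H2BD, HIST1H2AG and HIST1H4H), 1 had all below and 15 overlapped; of all genes tested, 14.1% had all KO above all WT and 14.7% had all below. The H4 genes went both ways. HIST1H4E had 7.20, 5.77 and 6.11 CPM in KO libraries, against 6.92, 7.72 and 6.95 CPM in WT libraries, with a log2 fold change of -0.18 ± 0.18 (adjusted p = 0.607). HIST1H4H had 1.49, 1.78 and 2.26 CPM in KO libraries, against 0.906, 1.16 and 1.39 CPM in WT libraries, with a log2 fold change of 0.68 ± 0.33 (adjusted p = 0.255). The H1 genes HIST1H1C and HIST1H1E, which encode linker histones, had log2 fold changes of 0.15 and 0.14.

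**Figure D3:**
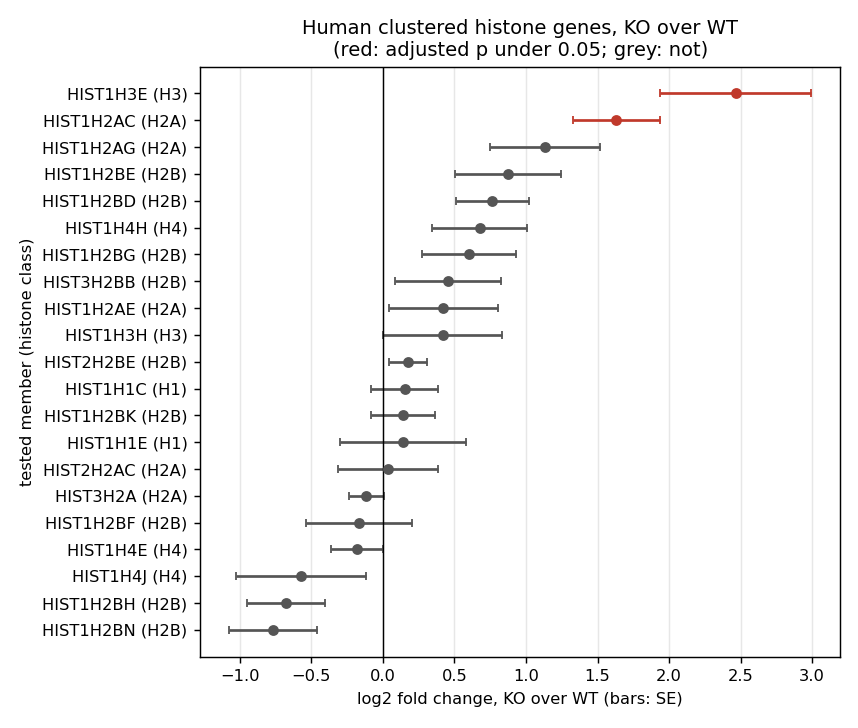
Log2 fold change of KO over WT for the 21 tested human members, with the standard error as bars, the histone class in brackets, and red where the adjusted p is under 0.05. HIST1H3E (2.47) and HIST1H2AC (1.63) stand at the top and HIST1H2BN (-0.77) at the bottom.

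HIST1H3C was too low for the filter, with 0, 0 and 0 counts in KO libraries, against 4, 6 and 3 counts in WT libraries. It was named after its values were seen, being 1 of 55 untested members, and is given as counts because every value is near the floor.

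The summed level of the family differed little. All members together had 134.4, 136.5 and 145.1 CPM in KO libraries, against 122.6, 124.5 and 136.8 CPM in WT libraries. WT 3 lay just above KO 2, so the groups overlapped, and the log2 ratio of the means was 0.12. Without HIST1H2AC and HIST1H3E the log2 ratio was 0.05. By class the log2 ratio was 0.44 for H3 and -0.39 without HIST1H3E, 0.18 for H2A and -0.02 without HIST1H2AC, 0.16 for H1, 0.09 for H2B and -0.05 for H4, and by group of genes 0.19 for HIST2, 0.15 for HIST1 and -0.09 for HIST3.

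**Figure D4:**
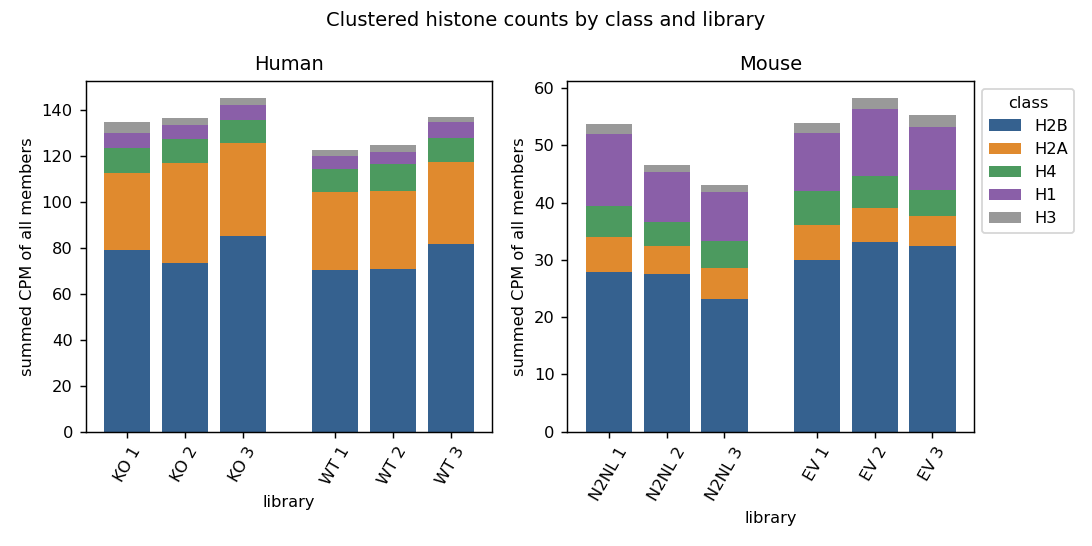
Summed CPM of all members in each library, stacked by histone class, with KO before WT for human and N2NL before EV for mouse; the scales differ between the panels. The human bars end between 134.4 and 145.1 CPM in KO and between 122.6 and 136.8 CPM in WT, and the mouse bars between 43.02 and 53.7 CPM in N2NL and between 53.9 and 58.3 CPM in EV.

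Other histone genes and the histone pathway were set beside the members. Of 12 tested replication-independent variant genes, which can also be transcribed outside S phase, 0 were higher and 2 were lower in KO organoids. H1F0 encodes the linker histone H1.0, which is known to accumulate in cells that leave the cycle. It had 106, 147 and 88.5 CPM in KO libraries, against 241, 244 and 239 CPM in WT libraries. The KO libraries were all far below the WT libraries, with a log2 fold change of -1.08 ± 0.17 (adjusted p = 0.0122). H2AFJ, an H2A variant, averaged 10.8 ± 1.86 CPM in KO and 19.4 ± 0.269 CPM in WT (SD, n = 3 each), with a log2 fold change of -0.85 ± 0.15 (adjusted p = 0.0132). H3F3B and H3F3A, which encode H3.3, both had log2 fold changes of -0.40, with adjusted p of 0.0612 and 0.170, H2AFZ had 0.11 and H2AFY, which encodes macroH2A, had 0.13. H2AFX, with its stem-loop, averaged 157 ± 28.9 CPM in KO and 148 ± 17.1 CPM in WT (SD, n = 3 each; adjusted p = 0.766). The summed level of the variants was 2803 to 2947 CPM in KO and 3154 to 3329 CPM in WT.

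Of 15 genes of histone transcription and 3′ processing, 1 was lower. LSM11, a protein of the U7 particle that helps cut the message after the stem-loop, averaged 25.5 ± 3.31 CPM in KO and 37.2 ± 2.66 CPM in WT (SD, n = 3 each), with a log2 fold change of -0.55 ± 0.12 (adjusted p = 0.0307). SLBP averaged 55.1 ± 2.91 CPM in KO and 53.2 ± 4.06 CPM in WT (SD, n = 3 each), with a log2 fold change of 0.05 (adjusted p = 0.798). NPAT, the activator of histone gene transcription, had a log2 fold change of 0.04. SRRT, SYMPK and NCBP2, the highest of the list by level, had 0.29, -0.10 and 0.03. None of 16 histone chaperone genes was called, among them NAP1L1, NASP and SSRP1 with log2 fold changes of 0.05, 0.24 and 0.07; all of these counts stand beside the 5.5% called over all genes.

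Calls of cell cycle genes are given beside the 2.31% of all genes called higher. Of 24 S phase genes 1 was higher, POLA1, the catalytic subunit of DNA polymerase alpha, with a log2 fold change of 0.58 ± 0.12 (adjusted p = 0.0262). PCNA, the polymerase clamp, had 244, 253 and 212 CPM in KO libraries, against 307, 179 and 227 CPM in WT libraries, and a log2 fold change of -0.01. MCM7 and MCM3, helicase subunits, had -0.14 and -0.13. Of the 24 S phase genes, 15 had log2 fold changes above 0, with a median of 0.05. Their summed level was 2411 to 2979 CPM in KO and 2134 to 3501 CPM in WT. Of 20 G2 and M phase genes 2 were higher, CCNB1 at 0.50 ± 0.11 and CENPE at 0.73 ± 0.16 (adjusted p of 0.0269 and 0.0325), and all 20 had log2 fold changes above 0, as had 49.3% of all genes. Their median was 0.35, their summed level was 2563 to 2945 CPM in KO and 1670 to 2507 CPM in WT, and MKI67, CENPF and TOP2A had log2 fold changes of 0.61, 0.65 and 0.40 (adjusted p of 0.0607, 0.185 and 0.238). The part of these cell cycle differences in the higher HIST1H2AC and HIST1H3E was not tested.

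Markers of cell types were read in the same way, beside 2.31% of all genes called higher and 3.19% called lower. None of 12 radial glia genes was called, with a summed level of 4165 to 4904 CPM in KO and 4768 to 5060 CPM in WT. VIM, NES and SOX2 had log2 fold changes of -0.30, -0.26 and -0.14. Of the 12 genes, 8 had log2 fold changes above 0, with a median of 0.135, where 49.3% of all genes were above 0. Of 12 neuron genes 2 were lower, MAPT at -0.37 ± 0.09 and TUBB3 at -0.52 ± 0.12 (adjusted p of 0.0404 and 0.0316), with a summed level of 3882 to 5502 CPM in KO and 4000 to 5145 CPM in WT; DCX, STMN2 and MAP2 had 0.08, -0.18 and 0.13. Of 7 pluripotent cell genes 2 could be tested and 0 were called, with sums of 3.55 to 8.73 CPM in KO and 5.24 to 14.5 CPM in WT. Of 13 genes of mesoderm, endoderm, neural crest and mesenchyme 5 could be tested, PDGFRB was higher (1.13 ± 0.25, adjusted p = 0.0402) and LUM was lower (-2.04 ± 0.40, adjusted p = 0.0181). The sum of these 13 was 32.8 to 53.8 CPM in KO and 22.9 to 26.8 CPM in WT, and its part in the histone result was not tested.

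Expressing NOTCH2NL-Sh_T197I in mouse organoids was accompanied by no called member. All 63 mouse members had at least 1 count, 16 had 10 counts or fewer over the 6 libraries, and 11 passed the filter. None of the 11 was called by edgeR at an adjusted p under 0.05, where 0.012% of all 16682 genes were called, all as higher, and 0.0% as lower; DESeq2 called none either, and 1 member had an unadjusted p under 0.05, beside 7.45% of all genes. The log2 fold change was above 0 for 2 members and below 0 for 9, where 48.3% of all genes were above 0, with a median of -0.14 for the members and -0.0059 for all genes. Without N2NL 2 the members' median was -0.008, with 5 above 0 and 6 below; it was -0.29 without N2NL 1, -0.21 without N2NL 3 and -0.22 without EV 3. In 1 member all N2NL libraries were below all EV libraries and in 10 the groups overlapped, beside 5.31% of all genes with all N2NL below EV and 7.39% with all above.

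Hist3h2ba, an H2B gene, held 40.6% of the mouse members' summed CPM and was that member. It had 20.6, 19.8 and 15.5 CPM in N2NL libraries, against 21.8, 25.2 and 23.5 CPM in EV libraries. N2NL 1 came close to EV 1, the lowest EV library, and the log2 fold change was -0.33 ± 0.12 (edgeR adjusted p = 0.549). Hist1h1c, an H1 gene and the second by level, had 9.65, 7.005 and 6.80 CPM in N2NL libraries, against 7.59, 8.66 and 8.94 CPM in EV libraries. N2NL 1 was the highest of the 6, and the log2 fold change was -0.10 ± 0.16. Hist2h2be had 3.09, 3.74 and 3.13 CPM in N2NL libraries, against 3.31, 3.41 and 3.52 CPM in EV libraries, with a log2 fold change of -0.04. Hist1h2bc, Hist3h2a, Hist1h1e, Hist1h2be and Hist1h2al had log2 fold changes of -0.09, -0.14, -0.36, -0.42 and -0.48, all with overlapping groups. Hist1h4i, an H4 gene, had a log2 fold change of 0.07 and Hist1h2af of 0.01, the 2 above 0. The largest difference was that of Hist2h4, with 0.697, 0.237 and 0.473 CPM in N2NL libraries, against 0.976, 0.852 and 0.684 CPM in EV libraries; N2NL 1 lay above EV 3, and the log2 fold change was -0.79 ± 0.41 (adjusted p = 0.709).

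**Figure D5:**
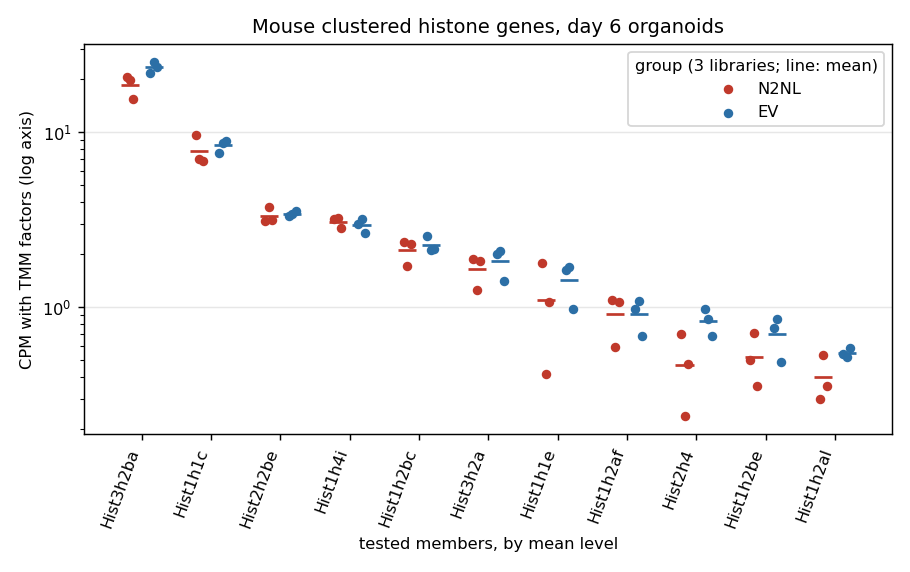
CPM with TMM factors (log axis) of the 11 tested mouse members in each library, N2NL in red and EV in blue, in order of mean level, with a line at each group's mean. The groups overlap in 10 members, and in Hist3h2ba the N2NL libraries (15.5 to 20.6 CPM) lie below the EV libraries (21.8 to 25.2 CPM).

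All mouse members together had 53.7, 46.6 and 43.02 CPM in N2NL libraries, against 53.9, 58.3 and 55.4 CPM in EV libraries. N2NL 1 was close to EV 1 and the other N2NL libraries were lower, and the log2 ratio of the means was -0.23, with -0.28 for H2B, -0.10 for H2A, -0.14 for H4, -0.13 for H1 and -0.52 for H3. The sums are given as a description, with no test. Of the mouse members, 3 have an adjusted p in the authors' deposited table and 0 are past 0.05. No gene was called in any of the 9 lists in mouse, among them H1f0, Slbp, Npat, Pcna and Mki67 with log2 fold changes of -0.15, 0.02, -0.08, -0.02 and 0.10; H3f3a, H3f3b and H2afz had -0.06, -0.13 and -0.02. By summed level the neuron genes had 785 to 885 CPM in N2NL and 922 to 1085 CPM in EV, and the pluripotent cell genes 578 to 644 CPM in N2NL and 524 to 573 CPM in EV; their part in the histone values was not tested.

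In both species an H2B gene had the highest level, HIST2H2BE in human and Hist3h2ba in mouse. Of 53 members with the same name, 5 were tested in both species. The match is by name alone, and whether namesakes are counterpart genes was not tested. HIST2H2BE averaged 44.5 CPM over the human libraries and its mouse namesake 3.36 CPM, while HIST3H2BA, annotated as a pseudogene in human, averaged 0.245 CPM in human and Hist3h2ba 21.1 CPM in mouse. HIST1H2AC, higher in human KO, averaged 4.85 CPM in human and 0.110 CPM in mouse, and HIST1H3E 1.06 CPM in human and 0.279 CPM in mouse, both too low to test in mouse. The species also differ in the age of the organoids and in the tables they were counted into, and these levels are not adjusted for gene length, so they are given side by side.

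Neighbouring genes that are read away from each other were compared within the human genome. There were 13 such pairs of members with starts within 1000 bases of each other, 12 of them an H2A and an H2B gene by name. In several of them 1 gene held most of the counts: HIST2H2BE averaged 44.5 CPM and HIST2H2AC 1.14 CPM with 323 bases between them, and HIST3H2A 26.6 CPM and HIST3H2BB 1.03 CPM with 234 bases between them. Per kilobase of exon the levels were 20.3 and 2.93 CPM for the first pair, whose models are 2194 and 390 bases long, and 29.7 and 0.437 CPM for the second, at 895 and 2364 bases. HIST1H2BK averaged 5.70 CPM and HIST1H2AH 0.0322 CPM with models of 381 and 387 bases, whereas HIST1H2BG and HIST1H2AE had 1.81 and 3.25 CPM per kilobase. HIST1H2BK shares 74.1% of its 50-base stretches with another transcript, so its level is uncertain. Both members were tested in 3 pairs, and no pair had both called.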

How the data were processed

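RNA-seq libraries from 12 pools of organoids were made from poly(A)-selected RNA with a strand-specific kit, per the labels' protocols. The authors deposited raw read counts per Ensembl gene, and the whole counts were used as they stand. The submitters' processing notes name HTSeq (0.6.1p1), DESeq2 (2.11.39), the aligners STAR (2.4.0) and Bowtie2 (2.3.3.1), and Trimmomatic (0.36), with no role or order. Neither the annotation release nor the counting's strand setting is given in the sources used here. In addition to counts, the authors' deposited comparison tables hold normalized values treated as a score, log2 fold changes with standard errors and p-values, per the file headers; of these, only values named as theirs are printed. The mouse count table also holds counter lines that name no gene, among them 26.6% to 33.7% of reads aligned to several places, and these were left out.

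Genes were kept by filterByExpr, scaled by TMM and tested by the robust quasi-likelihood test of edgeR 4.0.16 in R 4.3.3 with the group as the only term, KO over WT and N2NL over EV, with Benjamini-Hochberg adjustment over all genes and a threshold of 0.05. The ± of a fold is the size of the log2 fold divided by the square root of F. DESeq2 1.42.0, other scalings, no filter, the replicate number as a block and leaving out each library were the alternatives. The code was tested on simulated data. Shared sequence was counted as the percent of a member's 50-base stretches found in another GENCODE transcript, and the stem-loop by its 16-base consensus.

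The members and the 9 gene lists were chosen with earlier results of these data known. Named genes were all members past the threshold, the 12 tested members with the highest level, the 6 with the largest change and the 4 nearest the threshold in each species, and in the other lists those past it, the 3 highest and 8 fixed genes. Named list genes of the mouse and the lowest markers are not all written out. No mouse genome, mouse sequence or protein table was used here.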

Additional observations from a re-analysis of the deposited data

How the results depend on the processing

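Calls of single members depended on which library was left out, and the direction of every called member was kept in every alternative. Leaving out 1 library moved the human genes called over 224 to 1440 (932 with all), the members called higher over 0 to 2, the members called lower over 0 to 1, and the members' median log2 fold change over 0.16 to 0.435; in mouse the genes called ran over 0 to 17 (2 with all). Without the filter on low counts, 2155 human and 117 mouse genes were called and 2 human members were lower, HIST1H2BH (adjusted p = 0.00834) and HIST1H3C. DESeq2 called 1409 human and 27 mouse genes, and of members HIST1H2AC and HIST1H3E. The cause of these differences was not tested. With another scaling, by DESeq2 size factors or by library size alone, the calls of members stayed as reported.

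Pairing of libraries by replicate number was not apparent. Deviations of same-numbered libraries were correlated by 0.216, -0.113 and 0.126 in human and by 0.143, 0.016 and -0.005 in mouse. For libraries of different number the correlations ran from -0.331 to 0.277 in human and from -0.11 to 0.111 in mouse. With 3 libraries per group these values cannot decide whether the numbers pair them. A fit with the replicate number as a block called 1 human member higher, HIST1H2AC (adjusted p = 0.00868), with HIST1H3E at 0.0539, and called 899 human and 21 mouse genes. The counts of 55 of 76 human and 52 of 63 mouse members were too low to test, and the part of depth in this was not tested.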
